A study of Dugesia japonica with 157 samples.

Results

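The dorsal side of a planarian was compared with the interior of its body in serial tissue sections numbered from dorsal to ventral. Sections 4 to 9 of the 28 in that series made up the dorsal group and sections 10 to 18 the interior group. A section was kept when its total estimated count was at least 20% of the median total of the 28 columns. This left 13 of 15 sections, 5 dorsal (sections 4, 5, 7, 8 and 9) and 8 interior (sections 10 to 17), of the 157 libraries in the whole series. Each library holds polyadenylated RNA of 1 section of a whole Dugesia japonica of strain AF, prepared with the Direct-TRI procedure and the Lasy-Seq protocol, version 1.1, which pools many small samples before sequencing. The labels give no treatment, age, allele or number of animals. Sections stand in for replicates here, so every p-value measures the spread between sections and not between animals, and library numbers follow section order, so that position and any drift along the library order cannot be told apart.

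Planarians are flattened worms without a body cavity. A single-layered epidermis and a muscular body wall cover the dorsal and the ventral surface, and the space between them is filled with parenchyma, stem cells called neoblasts and the branches of the gut, with the pharynx in the middle of the trunk and the nerve cords near the ventral surface. Dorsal identity is maintained during growth and regeneration by BMP signalling from dorsal body-wall muscle. By this layout, sections near the dorsal surface should be richer in epidermis and body-wall muscle, and interior sections in gut and parenchyma. The tissue content of the sections was not tested. The deposited tables do not pair the transcript identifiers with gene names, so marker genes of these tissues could not be used to check the labelled positions, and transcripts are given as deposited, each identifier being a row of the table. In sections of this kind, fewer cells of a type and less RNA per cell cannot be told apart.

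Section totals differed widely in both groups. Dorsal sections 4, 5, 7, 8 and 9 held 623214, 2438734, 5088532, 4323922 and 10603361 counts, and the interior sections ran from 1643662 in section 10 to 26807303 in section 13. The mean log10 total was 6.51 ± 0.46 (SD, n = 5) dorsally and 7.06 ± 0.37 (SD, n = 8) in the interior, a difference of -0.545 (exact permutation test over 1287 regroupings, two-sided, p = 0.0373, adjusted over 3 section-level values p = 0.112). After thinning to the lowest kept total of 623214, 12631 ± 1627 (SD, n = 5) rows were detected dorsally and 13174 ± 483 (SD, n = 8) in the interior (exact permutation test, p = 0.471, adjusted p = 0.706). The 100 most abundant rows of a section took 51.8 ± 3.96% (SD, n = 5) and 52.6 ± 0.709% (SD, n = 8) of the thinned counts (exact permutation test, p = 0.759, adjusted p = 0.759). The raw difference in total did not pass after adjustment. It lost its unadjusted call when any one of sections 4, 5, 11, 12, 13, 15, 16 and 17 was left out, with a highest p of 0.119, and without section 4 the difference in rows detected turned to 150 and that in the top share to 0.909 percentage points.

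Dorsal sections and interior sections differed in 1195 of 17730 rows tested (6.74%; edgeR quasi-likelihood test, Benjamini-Hochberg adjusted p under 0.05). Of these, 502 rows (2.83%) were higher dorsally and 693 rows (3.91%) were higher in the interior. The median size of the difference was 1.64 on the log2 scale for the dorsal rows and 1.61 for the interior rows. A difference of at least 1 on the log2 scale, a doubling, was reached by 477 of the 502 dorsal rows and 563 of the 693 interior rows. The rows higher in the interior were also the more abundant, with a median level of 53.8 CPM against 22.9 CPM for the dorsal rows and 5.27 CPM for all rows tested, where CPM is a row's counts scaled to the depth of the section with TMM factors. Since some rows share the first part of their identifier and may be forms of 1 gene, first parts were also counted, giving 421 for the dorsal and 625 for the interior rows, with 1 first part in both lists. Rows summed by first part gave 502 and 596 calls.

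Sections of the groups did not overlap in a larger part of the interior rows than of the dorsal rows, and all rows tested showed the same asymmetry. The rows were called in these same sections, so the shares are a description only. The lowest interior section exceeded the highest dorsal section in 464 of the 693 interior rows (67%, against 3.45% of all rows tested with this order). The lowest dorsal section exceeded the highest interior section in 99 of the 502 dorsal rows (19.7%, against 0.739% of all rows tested).

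The median profile of the interior rows formed a plateau inside the body, and that of the dorsal rows was highest in section 4 and fell through the dorsal group. Relative to its mean over the 8 interior sections, the median interior row stood at 21.0%, 23.1%, 30.9%, 34.9% and 50.9% in dorsal sections 4, 5, 7, 8 and 9, then at 83.2% in section 10, peaked at 114% in section 13 and was at 80.2% in section 17. The highest value of an interior row lay in section 12, 13 or 14 for 121, 208 and 132 rows. Relative to its mean over the 5 dorsal sections, the median dorsal row stood at 177%, 105%, 98.0%, 65.5% and 38.6% in sections 4, 5, 7, 8 and 9. It was at 45.0% and 44.8% in sections 10 and 14, which have the lowest totals of the kept interior sections. In the other kept interior sections it was between 21.1% and 33.6%. Section 4, the kept section with the lowest total, held the highest value of 319 of the 502 dorsal rows (63.5%), and section 5 held that of 112 more. Over all rows tested, section 4 held the highest value of 16.1%. That share includes rows that peak in the interior, which a row called higher dorsally is unlikely to do. These shares are therefore not like for like.

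**Figure D1:**
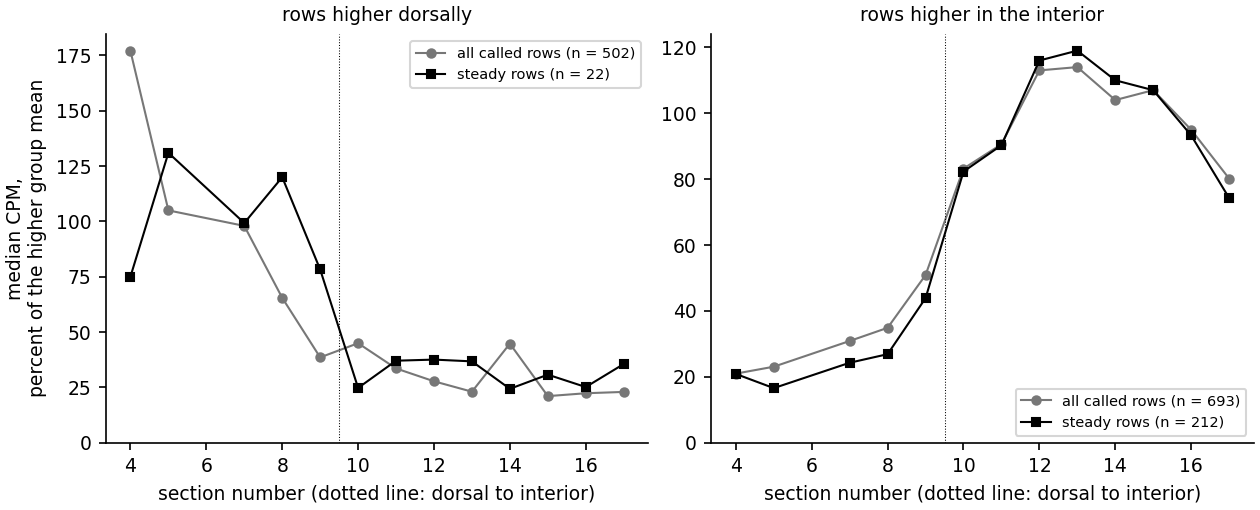
Median level of the called rows in each kept section, as CPM in percent of the row's mean over the group in which it was higher. Grey circles are all called rows and black squares are the steady rows, called in the first fit, with thinned counts, with the section total in the model and in the 13 fits that left out 1 section; the dotted line parts dorsal from interior sections. All 502 dorsal rows have their median peak of 177% in section 4, whereas the 22 steady rows have theirs of 131% in section 5; the interior curves of 693 and 212 rows nearly coincide.

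The share of a section's counts that fell in the 502 dorsal rows was high in every section with a low total, wherever it lay in the body. It was 14.4%, 5.63%, 5.03%, 3.52% and 1.84% in dorsal sections 4, 5, 7, 8 and 9 and between 1.07% and 2.62% in the kept interior sections. It was between 21.0% and 29.6% in the 7 sections left out for their low totals, which lie at both surfaces (sections 1, 2, 3, 27 and 28), in the dorsal group (section 6, 29.6%) and in the interior group (section 18, 28.8%). The kept ventral sections ranged from 3.07% to 28.7%, the highest being section 26, with the lowest total among them. The 693 interior rows had no raised share in low-total sections but a lower one than in the kept interior sections, with 4.00% in interior section 18. They took 6.04% to 10.9% of counts in the kept dorsal sections, 16.0% to 21.7% in the kept interior sections, 3.75% to 9.29% in the kept ventral sections and 4.00% to 6.65% in the low-total sections.

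**Figure D2:**
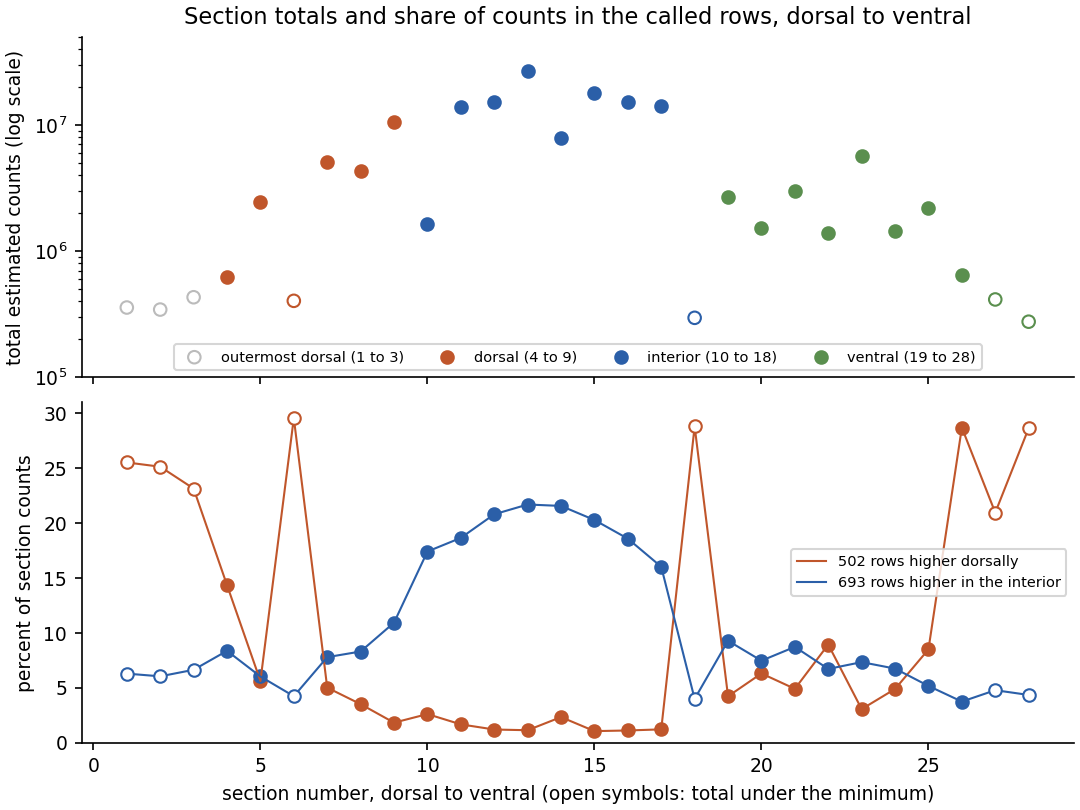
Total estimated counts (log axis) and percent of counts in the called rows for the 28 sections from dorsal to ventral; open symbols are the 7 sections under the minimum total. The share of the interior rows rises to 21.7% in section 13, whereas that of the dorsal rows is near 29% in the low-total sections 6, 18 and 28 alike.

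Along the other body axes the dorsal rows also took a larger share of counts in many low-total sections, with exceptions. In the right-left series, the 502 rows took 0.895% to 3.08% of counts in the kept sections, with a median of 1.19%, and 0.890% to 8.73% in the low-total sections, with a median of 4.75%. The right-left sections with the lowest totals, 25 (19222 counts) and 17 (20338 counts), had 1.62% and 0.890%, the latter the lowest share of that series. In the anterior-posterior series they took 0.736% to 11.9% in the kept sections, with a median of 1.95%, and 5.50% and 7.52% in the 2 low-total sections. The highest shares there, 11.9% and 9.60%, were in sections 78 and 75, which had the lowest totals of the kept sections, but sections 25 and 40, with 719691 and 825916 counts, also had 7.98% and 6.33%.

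**Figure D3:**
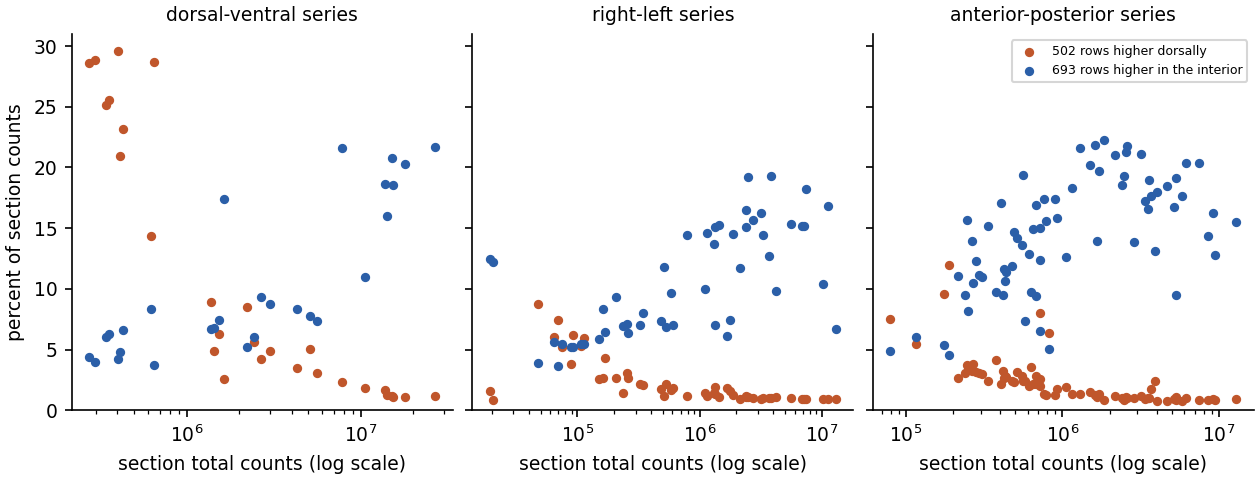
Percent of a section's counts in the 502 dorsal rows and in the 693 interior rows against the section's total counts (log axis), for all matched sections of the 3 series, 1 point per section and list. The share of the dorsal rows reaches 29.6% among low-total sections cut from dorsal to ventral and 8.73% among those cut from right to left, but the right-left sections with the lowest totals, 19222 and 20338 counts, have 1.62% and 0.890%.

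The calls were therefore repeated in fits that treat the totals differently. With all sections thinned to 623214 counts, 9665 rows could be tested, of which 679 were higher dorsally (7.03%) and 569 in the interior (5.89%). Of the 502 dorsal rows, 450 could be tested after thinning and 390 were called again, and of the 693 interior rows, 645 could be tested and 482 were called again. With the log10 total of each section as a term of the model, 71 rows were higher dorsally (0.400%) and 227 in the interior (1.28%), among them 35 of the 502 and 224 of the 693. The count of dorsal rows fell to 244, 240, 238, 302, 244, 214, 210, 219 and 221 when section 4, 5, 7, 11, 12, 13, 15, 16 or 17 was left out, and was 927 without section 9. The count of interior rows was 445, 446, 432 and 439 without section 7, 12, 13 or 15 and 1162 without section 9.

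Adding back the 2 sections with low totals changed the calls far more when they included section 18. With section 6 restored to the dorsal group, 605 and 475 rows were called. With section 18 restored to the interior group, 2 rows were higher dorsally and 5 in the interior, and with both restored 0 and 3 were called by edgeR, although 289 of the 502 and 493 of the 693 rows still had an unadjusted p under 0.05 in their own direction (1059 and 1073 among all rows). DESeq2 on the sections kept called 1373 and 1205 rows and limma-trend 250 and 937.

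The contrast was also computed over dorsal and interior sections whose totals overlap. Sections 5, 7, 8 and 9 (2438734 to 10603361 counts) were set against interior sections 10 and 14 (1643662 and 7831175), a choice made after the data were seen. The rows had been called in a fit that included these sections, so their direction here was largely set by that choice and is given as a description only. Over the 654 interior rows that could be tested, the median log2 difference was -1.33 and every row was lower dorsally. The 493 dorsal rows had a median of 0.86, and 479 of them were higher dorsally. In this small comparison edgeR called 0 rows after adjustment in either direction. At an unadjusted p under 0.05, 129 dorsal rows and 437 interior rows passed, of 803 and 706 in all.

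Rows called in the first fit, with thinned counts, with the section total in the model and in each of the 13 fits that left out 1 section are called steady here. This definition was made after the values were seen and its lists are described without a test. There were 22 steady dorsal rows (4.38% of 502) and 212 steady interior rows (30.6% of 693). The share of the steady dorsal rows was 0.137% to 0.274% in the dorsal sections and 0.0455% to 0.0699% in the interior sections. In the low-total sections it ranged from 0.041% to 0.224%, with 0.0447% in section 6, 0.0467% in section 18, 0.104% in section 3 and its highest value in section 27, inside the range of the kept dorsal sections. A call with the section total in the model was part of the definition, so these shares are no independent measure of how the rows vary with totals. The steady interior rows took 2.83% to 6.37% of dorsal counts and 10.2% to 15.0% of interior counts in the kept sections. In the low-total sections they took 2.47% to 4.21%, with 2.47% in interior section 18.

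The 2 dorsal rows named for their differences were high in some dorsal sections only, section 4 above all. They had the largest differences among rows also called after thinning, with a count in every dorsal section and at least 10 CPM there. Over all 502 dorsal rows the log2 difference reached 7.55. DjGI014370_001 stood at 86.2, 5.48, 15.9, 6.65 and 4.71 CPM in dorsal sections 4, 5, 7, 8 and 9, and its interior values had a low of 0.857, a median of 1.56 and a high of 5.65 CPM. Section 4 was far above all others and the groups overlapped, since section 10 exceeded sections 5 and 9. The means were 23.8 ± 35.2 CPM (SD, n = 5) and 2.09 ± 1.55 CPM (SD, n = 8), with a log2 fold change of 3.61 ± 0.67 (SE; edgeR adjusted p = 0.00394). With the total added to the model this became 1.45 with an adjusted p of 0.179. DjGI015500_001 was at 26.8, 1.09, 15.0, 10.7 and 0.491 CPM in the same dorsal sections and between 0.0612 and 2.32 CPM in the interior, where its median was 1.11 CPM. Sections 5 and 9 lay within the interior range. Its log2 fold change was 3.27 ± 0.91 (SE; edgeR adjusted p = 0.0372), and the call was lost in 14 of 24 alternative fits, with adjusted p-values up to 0.431, including those without section 4, 7, 8, 11, 12, 13, 15, 16 or 17 (0.0506 to 0.117).

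The 2 steady dorsal rows named by the same rule were high in all 5 dorsal sections. Their calls had to hold without any 1 section and with the total in the model, so the definition itself favours such rows. DjGI006905_001 was at 210, 278, 177, 141 and 69.4 CPM dorsally and had a low of 17.5, a median of 30.6 and a high of 56.5 CPM in the interior. Every dorsal section exceeded every interior section, and the dorsal section nearest to the interior was the lowest of its group. The means were 175 ± 77.6 CPM (SD, n = 5) and 31.9 ± 13.1 CPM (SD, n = 8), a log2 fold change of 2.47 ± 0.32 (SE; edgeR adjusted p = 0.000427). DjGI001603_001 was at 16.9, 62.4, 40.2, 18.5 and 14.4 CPM dorsally and between 3.96 and 11.8 CPM in the interior, with a median of 6.35 CPM. These groups did not overlap either. Its log2 fold change was 2.18 ± 0.39 (SE; edgeR adjusted p = 0.00297). Both rows lost their calls with all sections 4 to 18 in the fit, with adjusted p-values of 0.153 and 0.201, and DjGI001603_001 also with the ventral sections in the fit (0.186). In low-total dorsal section 6, outside the test, DjGI006905_001 had 1 count (2.48 CPM of the section total) and DjGI001603_001 had 0. In the outermost sections 1, 2 and 3 they had 21, 0 and 1 counts and 0, 0 and 13 counts.

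The 2 interior rows named by the same rule were at or close to 0 in the kept dorsal sections, and the rule named the same rows from the steady list. DjGI007068_001 had 0 counts in the 5 kept dorsal sections and 1944 in the 8 interior sections. Its interior values were 4.95, 3.09, 4.98, 19.3, 33.3, 40.0, 26.0 and 6.53 CPM in sections 10 to 17, highest in the middle of the interior. Pooled over each group, its level was at least 133-fold higher in the interior, taking 3 counts over the dorsal group as the floor (edgeR adjusted p = 0.00096). The bound holds for the kept sections only, since the low-total outermost sections 1 and 3 had 10 and 7 counts, or 28.1 and 16.3 CPM of the section total, within the interior range. DjGI018860_001 was at 0, 0, 1.85, 0.215 and 0.0981 CPM dorsally and had a low of 13.6, a median of 30.5 and a high of 71.5 CPM in the interior. No dorsal section came near the lowest interior section. The log2 fold change was -5.97 ± 0.71 (SE; edgeR adjusted p = 0.000195). Both rows were called in all 24 alternative fits, with adjusted p-values up to 0.0139.

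**Figure D4:**
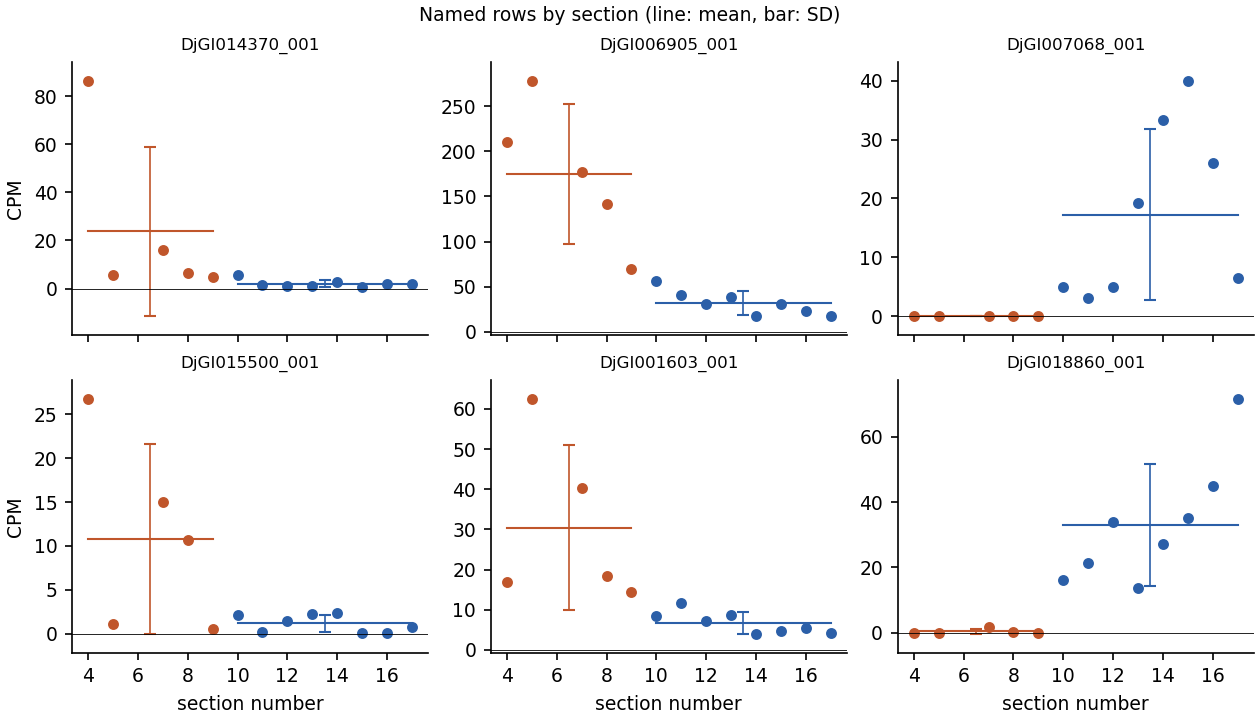
CPM by section for the named rows of the comparison, dorsal sections in orange and interior sections in blue, with the group mean (line) and SD (bar). The left column shows the named dorsal rows, the middle column the named steady dorsal rows and the right column the named interior rows. Each was picked for its difference among rows that met the limits on counts, level and thinning. Only kept sections are shown. Among them DjGI014370_001 reaches 86.2 CPM in section 4 and less than 16 CPM elsewhere, whereas DjGI006905_001 is above 69 CPM in all 5 dorsal sections.

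The place where one pattern gave way to the other was read from rows called without sections 9 and 10, the sections on either side of the border. For the 1223 rows then higher in the interior, the median row had gone 63.2% of the way from the dorsal to the interior mean in section 9 and 82.9% in section 10. For the 966 rows then higher dorsally, the median row had gone 84.7% of the way in section 9 and 44.6% in section 10. In the first list section 9 was thus nearer to the dorsal mean than section 10, as in the order of the sections. In the second, section 9, with 10603361 counts, was nearer to the interior mean than section 10, with 1643662 counts. Whether position or total set these orders was not tested.

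Slopes along the section numbers were fitted inside each group. The dorsal and interior rows were called in these same sections, so the slopes of these lists are a description only. In the interior group 3 of 17730 rows rose towards the ventral side (0.0169%) and 0 fell (0%; edgeR, with 386 rising and 445 falling at an unadjusted p under 0.05). The median slope was -0.01 per section on the log2 scale for the 693 interior rows and -0.12 for the 502 dorsal rows. Of the dorsal rows 0 were called, but 116 had a negative and 2 a positive slope at an unadjusted p under 0.05, and 22.5% had a slope above 0 against 55.6% of all rows tested. The 1 interior row called was DjGI018085_001, at 21.2, 19.5, 21.8, 13.5, 30.3, 99.3, 134 and 255 CPM in sections 10 to 17. It was low and flat up to section 14 and rose thereafter, with a slope of 0.57 ± 0.084 per section (SE; edgeR adjusted p = 0.0333). The call was lost without section 8, 11, 12, 15, 16 or 17 (adjusted p from 0.053 to 1), and the count of 3 rising rows was 13 without section 4 or 5, 7 without section 7, 9 or 14, 1 without section 8 or 15 and 0 without section 11, 12, 16 or 17. Without section 5, 1 row fell.

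In the dorsal group 747 rows rose towards the interior (4.21%) and 234 fell (1.32%). Of the 693 interior rows 106 rose (15.3%) and 2 fell, with a median slope of 0.21 per section. Of the 502 dorsal rows 83 fell (16.5%) and 0 rose, with a median slope of -0.38. Both lists were called in these same sections, so their shares are not like for like with those of all rows. Section 4 alone held the highest value of 319 of the 502 dorsal rows. The totals rise along these sections as well, and with the section total in the model 58 rows rose (0.327%) and 8 fell (0.0451%), among them 16 of the interior and 0 of the dorsal rows. With thinned counts the falling rows instead increased to 430, among them 165 of the 450 dorsal rows tested (36.7%). The rising count was 229, 1395, 400, 485, 458 and 479 without section 4, 5, 8, 9, 15 or 16. The falling count was 15, 437, 54, 84, 385, 129 and 132 without section 4, 5, 8, 9, 14, 15 or 16.

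Among dorsal and interior rows averaging at least 10 CPM, the 2 with the steepest called rise were at 0 in sections 4 and 5. They reached their highest dorsal level in section 9. DjGI012475_001 was at 0, 0, 0.926, 3.00 and 8.54 CPM in sections 4, 5, 7, 8 and 9 and between 10.7 and 25.4 CPM in the interior. Its slope was 1.72 ± 0.261 per section (SE; edgeR adjusted p = 0.00494), and all 16 alternative fits called it. DjGI013611_001 was at 0, 0, 1.30, 3.65 and 8.54 CPM and between 9.19 and 39.6 CPM in the interior, with a slope of 1.55 ± 0.284 (SE; edgeR adjusted p = 0.0116). This call was lost with thinned counts (0.0554), with the total in the model (0.0733) and without section 9 (0.0509). Nearer the dorsal surface, in low-total sections outside the test, DjGI012475_001 had 19 counts in section 3 (44.2 CPM of the section total) and DjGI013611_001 had 11 counts in section 2 (32.0 CPM), above or within their interior ranges. Of the 2 steepest falls picked in the same way, neither was called without section 4. DjGI001341_003 was at 70.4, 21.9, 15.2, 2.15 and 3.53 CPM, with a slope of -0.87 ± 0.183 (SE; edgeR adjusted p = 0.0185). Without section 4 or 9 its adjusted p was 0.188 or 0.052. DjGI006148_001, an interior row, was at 21.8, 1.46, 1.11, 0 and 1.37 CPM and between 8.48 and 58.1 CPM in the interior. Its slope of -0.83 ± 0.232 (SE; edgeR adjusted p = 0.0463) became -0.05 without section 4 (adjusted p = 0.976), and leaving out section 7, 8, 11, 12, 13, 15, 16 or 17 also ended the call (0.0527 to 0.0805).

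A fit of 3 regions added the 8 kept ventral sections, and its contrasts share sections, so they are given side by side without counting what they have in common. For the 502 dorsal rows the median log2 difference from the interior was 1.61 dorsally and 1.96 ventrally. For the 693 interior rows it was -1.66 dorsally and -1.89 ventrally. Over all rows tested, the ventral contrast called 6.61% of rows higher ventrally and 7.12% higher in the interior. The ventral sections had totals of 648215 to 5636890 counts. The steady dorsal rows had medians of 1.67 dorsally and 0.24 ventrally, and the steady interior rows -1.96 and -2.50. DjGI006905_001 averaged 189 CPM dorsally, 34.9 CPM in the interior and 15.5 ± 16.6 CPM (SD, n = 8) ventrally in this fit. DjGI018860_001, near 0 dorsally, averaged 35.9 CPM in the interior and 152 ± 62.8 CPM (SD, n = 8) ventrally, where it was higher than in the interior by 2.08 on the log2 scale (edgeR adjusted p = 0.00199). It thus increased from the dorsal to the ventral side, whereas DjGI007068_001 averaged 7.05 ± 6.03 CPM (SD, n = 8) ventrally against 18.9 CPM in the interior, a difference that did not pass (log2 -1.41, edgeR adjusted p = 0.196). With the ventral sections in the fit only 9 rows were called higher dorsally than in the interior and 75 higher in the interior. The interior rows were defined against the dorsal sections alone. DjGI006148_001 averaged 216 CPM ventrally against 47.6 CPM in the interior (log2 2.18, edgeR adjusted p = 0.0111). DjGI012475_001 and DjGI013611_001 were lower ventrally, at 0.838 and 0.484 CPM against 16.7 and 23.5 CPM (edgeR adjusted p = 0.00275 and 3.7e-05).

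The right-left series, whose sections played no part in choosing the rows, was divided by section number into right, middle and left, with 8, 15 and 14 kept sections. No label places the midline or the body margin in this series, so the middle and the sides stand for section order only. Of 10040 rows tested, 47 were called with the middle above the sides (0.468%) and 16 with the sides above the middle (0.159%). Of the 693 interior rows 646 were tested, and 7 were called higher in the middle (1.08%) and 5 at the sides (0.774%). Their effects as a whole lay on the side of the middle, with a median of 0.59 on the log2 scale and 94.4% of rows above 0, against 0.09 and 58.5% for all rows tested. With the section total in the model the median was 0.35. The 341 dorsal rows tested had a median of -0.30, with 0 called higher in the middle and 1 at the sides. With the section total in the model that median was -0.05. The 211 steady interior rows tested had a median of 0.77 and the 22 steady dorsal rows one of -0.28, which became 0.48 and -0.35 with the total in the model.

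**Figure D5:**
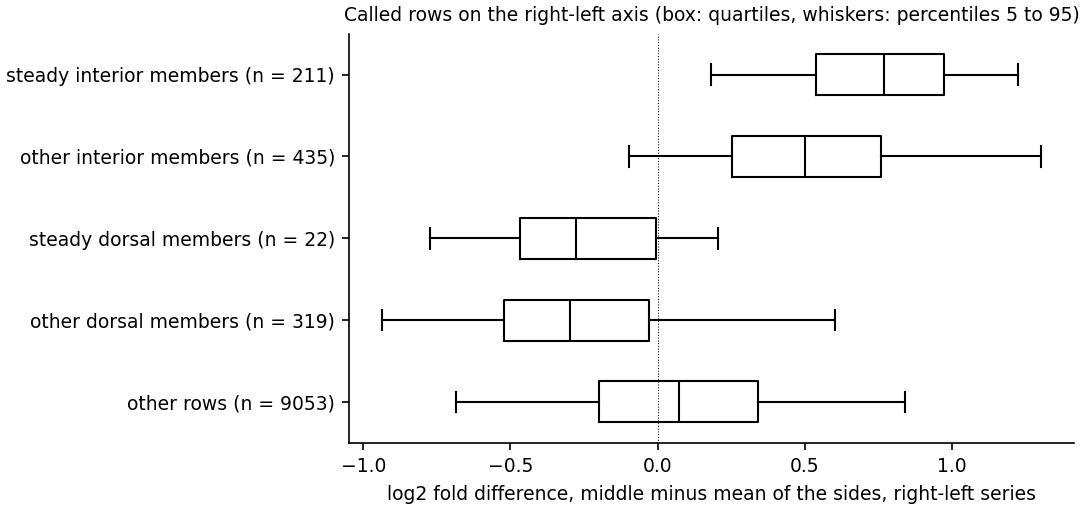
Log2 difference between the middle and the mean of the sides in the right-left series, for rows grouped by their dorsal or interior calls; boxes span the quartiles with the median, and whiskers percentiles 5 to 95. Most interior rows lie to the right of 0, with a median of 0.77 for the steady rows, and most dorsal rows to its left, with 22.3% of them above 0. With the section total in the model, which is not drawn, 47.5% of the dorsal rows are above 0.

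DjGI007068_001 was among the interior rows called in the middle, with means ± SD of 23.8 ± 35.9 CPM in the 15 middle sections, 1.64 ± 2.51 CPM in the 8 right sections and 5.29 ± 6.70 CPM in the 14 left sections. Its log2 difference was 2.80 ± 0.65 (SE; edgeR adjusted p = 0.0202), and its adjusted p was 0.392 once the total was a term of the model. DjGI000039_005 was at 28.3 ± 17.4, 7.73 ± 5.20 and 5.34 ± 5.98 CPM (SD) in the same order, with a log2 difference of 2.08 ± 0.50 (SE; edgeR adjusted p = 0.0251, and 0.113 with the total). Both were low on each side and variable in the middle. The interior rows DjGI017445_001 and DjGI016148_001 were instead higher at the sides. DjGI017445_001 was at 12.2 ± 12.7, 21.9 ± 22.2 and 200 ± 281 CPM (SD), so that the left sections carried the difference of -2.44 ± 0.57 (SE; edgeR adjusted p = 0.0202). DjGI016148_001 was at 13.5 ± 5.95, 49.2 ± 66.0 and 115 ± 115 CPM (SD), a log2 difference of -2.37 ± 0.44 (SE; edgeR adjusted p = 0.00138, and 0.131 with the total). The 1 dorsal row called, DjGI014805_001, was at 44.1 ± 14.3, 82.9 ± 49.9 and 80.8 ± 30.0 CPM (SD), and thus lower in the middle by a similar amount against each side (log2 -0.87 ± 0.21, SE; edgeR adjusted p = 0.0285). In the fit of 3 regions DjGI017445_001 and DjGI016148_001 averaged 75.8 and 104 CPM ventrally against 24.8 and 24.6 CPM in the interior (edgeR adjusted p = 0.115 and 0.00112). DjGI007068_001 and DjGI000039_005 averaged lower ventrally than in the interior, the latter at 4.94 against 45.5 CPM (edgeR adjusted p = 0.00287).

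Along the anterior-posterior axis, with 19 anterior, 26 middle and 24 posterior sections kept, the median effects of both lists were small. The matched sections start at section 8, so the foremost sections are absent from the anterior part and from the ends. Of 5975 rows tested, 66 were called in favour of the middle (1.10%) and 11 of the ends (0.184%), and 58 were higher anteriorly (0.971%) and 34 posteriorly (0.569%). The 591 interior rows tested had a median difference of 0.04 between middle and ends, with 0 called for the middle and 2 for the ends, and of 0.11 between anterior and posterior, with 2 called anteriorly and 4 posteriorly. The 282 dorsal rows tested had medians of -0.15 and 0.00, with 0 called between middle and ends, 0 anteriorly and 3 posteriorly. All rows tested had medians of -0.01 and 0.16. With the section total in the model, the middle medians of the dorsal and interior rows turned to 0.25 and -0.10.

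The anterior-posterior calls among single interior rows were led by DjGI018085_001, whose level rose towards the ventral end of the interior group. It averaged 425 ± 467 CPM (SD) over the 19 anterior sections, 45.3 ± 20.1 CPM over the 26 middle sections and 58.6 ± 79.8 CPM over the 24 posterior sections, and was higher anteriorly than posteriorly by 2.88 ± 0.49 on the log2 scale (SE; edgeR adjusted p = 9.8e-05). DjGI018231_001 was likewise anterior, at 141 ± 169 CPM (SD, n = 19) against 27.1 ± 37.8 CPM (SD, n = 24) posteriorly (log2 2.36 ± 0.61, SE; edgeR adjusted p = 0.0218). DjGI013687_001 was lower in the middle than at the ends by 1.23 ± 0.33 (log2 -1.23, SE; edgeR adjusted p = 0.0369). Interior rows higher posteriorly included DjGI014898_001, at 526 ± 263 CPM (SD, n = 19) anteriorly and 970 ± 547 CPM (SD, n = 24) posteriorly (log2 -0.88 ± 0.23, SE; edgeR adjusted p = 0.0268), and DjGI018701_001 (log2 -0.86 ± 0.24, SE; edgeR adjusted p = 0.0475). With all matched sections in the fit, the calls of DjGI013687_001, DjGI018231_001, DjGI014898_001 and DjGI018701_001 were lost, with adjusted p-values of 0.0847, 0.0831, 0.136 and 0.208, and that of DjGI013687_001 also with the filter on 10% of sections (0.0642). In the fit of 3 regions DjGI018085_001, DjGI018231_001 and DjGI013687_001 averaged 241, 129 and 204 CPM ventrally against 79.9, 29.5 and 76.1 CPM in the interior. Of these differences only that of DjGI018231_001 passed (edgeR adjusted p = 0.0128). DjGI014898_001 and DjGI018701_001 averaged 272 and 104 CPM ventrally against 665 and 126 CPM in the interior. Of the dorsal rows higher posteriorly, DjGI017744_001 had a median of 245 CPM over the kept sections and a high of 41680 CPM, and DjGI017618_001 a median of 13.0 CPM and a high of 3992 CPM. In both the highest section lay far above the median, and their adjusted p-values went from 0.0173 and 0.0184 to 0.289 and 0.286 with the section total in the model.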

How the data were processed

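Sections of whole Dugesia japonica were sequenced along 3 body axes. The authors deposited tables of estimated counts with 25566 rows (19543 first parts of identifiers). The tools listed, per the submitters' processing notes, were Salmon (no version), BWA 0.7.17-r1188, fastp 0.21.0 and bcl2fastq 2.20.0; their roles and the reference are not given in the sources here. Of 3834900 values, 1005 (0.0262%) were not whole and were rounded. The names of 7 anterior-posterior columns did not match 1 section and these were not used, so that series starts at section 8. Kept dorsal-ventral sections had at least 465142 counts (20% of the median of 2325710). On the other axes the minimum was 20% of the median of that series. The lowest kept totals there were 236421 (right-left) and 175749 (anterior-posterior). Rows had 5 counts in at least 3 kept sections (50% of the kept sections on the other axes). Counts were tested with edgeR 4.0.16 (R 4.3.3), TMM factors and quasi-likelihood F-tests, with p-values adjusted over all rows by the Benjamini-Hochberg method. Thinning drew counts without replacement. limma 3.58.1 and DESeq2 1.42.0 were alternatives. The fit was tested on simulated data. Named rows are, per direction, the 2 with the largest difference among rows also called after thinning, with a count in every section of the higher group and a mean of at least 10 CPM there, and on slopes and other axes the 2 called members with the largest effect and at least 10 CPM. Members, lists and tests were chosen with earlier results of these data known. Marker lists could not be matched, and near-identical rows may share reads. The bound on a fold covers counting error only.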

Additional observations from a re-analysis of the deposited data

Results flagged for a closer look

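In 32 groups of sections, a value was picked out when its gap to its nearest neighbour exceeded Dixon's 95% limit. The gap was taken as a share of the group's range. Chance does this in about 5% of groups of unselected values. The named rows were picked from these same sections, so that rate is only a rough guide for them. Of the 8 values found, 4 were in section 4 and 3 in section 10. These are the kept sections with the lowest totals of the dorsal and the interior group. In section 4 these were high values of DjGI014370_001 (86.2 CPM), DjGI001341_003 (70.4 CPM) and DjGI006148_001 (21.8 CPM), and a low share of thinned counts in the 100 most abundant rows (44.9%). In section 10 they were a high value of DjGI014370_001 (5.65 CPM), a low value of DjGI006148_001 (8.48 CPM) and the low log10 total (6.22). The remaining one was the value of DjGI018860_001 in dorsal section 7 (1.85 CPM), which came from 10 counts.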

How the results depend on the processing

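Counts of rows higher dorsally and in the interior (502 and 693) were 71 and 227 with the section total in the model, 0 and 3 with all sections 4 to 18, 2 and 5 with all but section 6, 605 and 475 with all but section 18, 244 and 705 with a minimum total of 50% of the median, 250 and 937 by limma-trend, 1373 and 1205 by DESeq2 (4492 rows without an adjusted p), 9 and 75 with ventral sections, 966 and 1223 without sections 9 and 10, and 0 and 0 between overlapping totals. They were within 1.5 times under thinning (679 and 569; 670 to 727 and 542 to 596 over 6 draws), RLE factors (713 and 608), no row filter (535 and 661), 5 counts in at least 7 sections (588 and 706) and summed rows. Leaving out 1 section gave 210 to 927 and 432 to 1162, interior slopes 0 to 13 rising and 0 to 1 falling, dorsal slopes 229 to 1395 rising and 15 to 437 falling, and section-level differences of -0.674 to -0.367 (log10 total), -843 to 150 (rows detected) and -1.51 to 0.909 (top share). With all sections 4 to 18 the log10 total differed by -0.520 (p = 0.123, exact permutation test). Interior rising slopes were 6 after thinning, dorsal falling slopes 430, and with the total in the model dorsal slopes were 58 rising and 8 falling. On the right-left axis, dorsal rows called (1) were 2 when the list was taken from thinned counts, 3 with a filter on 10% of the sections and 8 with all sections; their median was -0.048 with the total and -0.72 with all sections. Interior rows called (12) were 24 and 28, with a median of 0.35 with the total. Between the middle and the ends, dorsal rows called (0) were 2, 1 and 5 with the thinned list, the total and the 10% filter, and their median was 0.25 with the total and -0.053 with the filter; the interior median was -0.10, 0.085 and 0.12 with the total, the filter and all sections. Between anterior and posterior, dorsal rows called (3) were 12, 8 and 8 with the thinned list, the total and the filter, with medians of -0.054, 0.24 and 0.013 and -0.14 with all sections; interior rows called (6) were 13 with the total and 3 with all sections. Of 262 alternative values of named rows, 209 stayed on their side of the threshold, 53 lost the call and 0 reversed. Beyond what the changed number of sections or rows sets, the cause was not tested. No paired analysis was possible because the dorsal and interior groups share no section numbers. The section totals, which run with position, limit what these counts show for the dorsal and the interior rows, and 1 series without labelled replicate animals limits all of them.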
